A study of Mus musculus with 12 samples.

Results

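Immediate early genes are the genes that cells switch on within minutes of a signal, before any new protein is made. The 10 described here are Fos, Fosb, Jun, Junb, Egr1, Ier2, Dusp1, Klf4, Klf6 and Btg2, chosen by gene symbol from the 17922 genes of the expression table. All 10 were found, each as 1 row, and all 10 passed the filter on low counts in every comparison.

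They were measured by RNA-seq in primary chondrocytes, the cartilage cells, of mouse ribs, in 4 groups of 3 samples. The LDH knockout came from mice at postnatal day 5 that carried Col2-Cre, Ldha with both alleles floxed and Ldhb+/- (1 Ldhb allele intact), and its LDH control came from littermates. The Acly knockout came from embryos at E18.5 that carried Col2-Cre and Acly with both alleles floxed, and its Acly control came from littermates. The genotype of either control beyond this word was not given, so whether the controls carried Cre or floxed alleles is not known here. All 4 groups shared the strain, C57BL/6-dominant mixed, the release of the cells with collagenase, and about a day in culture in medium with serum. Ldha and Ldhb encode the subunits of lactate dehydrogenase, which closes glycolysis, and Acly encodes ATP citrate lyase, which makes acetyl-CoA in the cytoplasm. Col2-Cre, a recombinase driven by the type II collagen promoter, acts in cells of the chondrocyte lineage, so other cells in the dish would keep the floxed genes. The labels do not say whether a sample was 1 animal or a pool, so p-values measure the spread between these samples.

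Growth factors, serum and stress reach these genes through MAP kinases, which act on SRF with its ETS partners and on CREB, both already bound at the promoters. Their mRNAs are short-lived, and several of the proteins feed back on the pathway. Fos, Fosb, Jun and Junb encode subunits of AP-1, a dimeric transcription factor that is known in cartilage for its part in hypertrophy and in the expression of matrix proteases. Egr1 encodes a zinc finger transcription factor, Klf4 and Klf6 encode Krüppel-like zinc finger factors, and Ier2 encodes a small nuclear protein. Dusp1 encodes a phosphatase that switches MAP kinases off, and Btg2 encodes an antiproliferative protein that binds the CCR4-NOT deadenylase, the enzyme that shortens mRNA tails. The cells had no timed stimulus, so the values are levels after a day in serum and not an induction.

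Promoters of 8 of the 10 genes were matched by symbol in the RefSeq promoter table of GRCm38.p6, and the 250 bases before the start of each were searched. Egr1 and Ier2 had no entry. The 4 printed here belong to the genes that differed most between the control groups in each direction among the 8, Dusp1 and Btg2 against Fos, and to Junb, the most abundant of the 10. They are written 5′ to 3′ on the gene's strand, with the CRE core in its short form TGACG (or CGTCA, the same on the other strand), the full palindrome TGACGTCA and the TATA box TATAAA in capitals. Dusp1 lies at chr17:26508473-26508722 on the minus strand, Btg2 at chr1:134079156-134079405 on the minus strand, Fos at chr12:85473640-85473889 on the plus strand and Junb at chr8:84978749-84978998 on the minus strand.
Dusp1: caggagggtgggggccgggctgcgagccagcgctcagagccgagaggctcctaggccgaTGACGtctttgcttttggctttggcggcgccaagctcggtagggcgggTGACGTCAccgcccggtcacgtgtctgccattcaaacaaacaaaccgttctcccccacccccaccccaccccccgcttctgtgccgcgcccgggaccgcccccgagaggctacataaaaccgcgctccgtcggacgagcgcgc
Btg2: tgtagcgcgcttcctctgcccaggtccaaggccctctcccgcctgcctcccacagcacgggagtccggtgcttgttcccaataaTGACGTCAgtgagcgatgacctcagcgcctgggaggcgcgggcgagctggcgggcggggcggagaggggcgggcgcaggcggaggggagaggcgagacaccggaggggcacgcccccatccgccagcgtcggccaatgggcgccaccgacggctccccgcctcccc
Fos: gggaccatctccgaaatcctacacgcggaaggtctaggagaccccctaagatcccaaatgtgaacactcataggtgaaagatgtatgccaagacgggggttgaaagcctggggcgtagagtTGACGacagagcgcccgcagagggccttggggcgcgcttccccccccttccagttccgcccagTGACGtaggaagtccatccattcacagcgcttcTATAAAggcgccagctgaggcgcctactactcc
Junb: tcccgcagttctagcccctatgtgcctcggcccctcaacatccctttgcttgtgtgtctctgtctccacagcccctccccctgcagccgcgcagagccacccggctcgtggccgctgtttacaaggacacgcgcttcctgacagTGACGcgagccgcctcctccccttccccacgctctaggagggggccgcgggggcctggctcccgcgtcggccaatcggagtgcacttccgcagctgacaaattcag

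The full CRE palindrome TGACGTCA, the site for which the cAMP response factor CREB is named, was found in the windows of Btg2 (bases -166 to -159 before the start) and Dusp1 (-143 to -136). Of all 32851 windows of that length, 1.55% held it. The short form TGACG, which the full palindrome contains, was found on either strand in 6 of the 8 (Btg2, Dusp1, Fos, Fosb, Junb and Klf4) and in 17.8% of all windows. The GC box GGGCGG was found in 7 of the 8, all but Junb, and in 32.7% of all windows. Fos alone of the 8 had the TATA box letters TATAAA, at -33 to -28, against 12.4% of all windows. The EGR site GCGNGGGCG was found in Btg2, Fosb and Klf4 and in 4.7% of all windows, where it can overlap a GC box. None of the 8 windows held a CArG box (1.47% of all windows), the AP-1 site TGANTCA (6.75%) or the ETS core CCGGAA (3952 windows) on either strand, which says only that these letters are not in these 250 bases. The median GC content of the 8 windows was 67.4%, against 52.4% over all windows.

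In the GENCODE M21 annotation 9 of the 10 genes span under 10000 bases, as do 27.0% of all genes. The exception is Dusp1, whose longest drawn extent is 56539 bases. The median span of the 10 was 4698 bases, against 22400 over 17201 genes, and the median number of exons was 3, against 8. Ier2, Jun and Junb had 1 exon. The pentamer ATTTA, the core of AU-rich elements that mark mRNAs for rapid decay, was found in the 3′ UTR of 9 of the 10, all but Ier2, and in that of 61.9% of all genes. Its density was highest in Dusp1 at 5.77 per kilobase, followed by Fos at 4.89 and Junb at 4.10. Other genes lie across 3 of them in that annotation. Junos is antisense to Jun, Prdx2 overlaps Junb on the opposite strand, and Ergic1 on the opposite strand and 3 small pseudogene or intronic models overlap the longest model of Dusp1. Whether the counting used strand was not given in the sources used here, so the values of Jun, Junb and Dusp1 are less certain than those of the other 7.

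Each sample held between 26362407 and 28154143 expected counts, so 3 counts, the least taken as shown, correspond to 0.107 to 0.114 CPM (counts per 1000000 counts). Ldha was at 894 ± 51.3 CPM in LDH controls and 91.8 ± 7.03 CPM in LDH knockouts, and Acly at 187 ± 4.69 CPM in Acly controls and 69.9 ± 18.8 CPM in Acly knockouts (SD, n = 3 each). Transcript of both genes thus remained in the knockouts. Ldhb was not lower in LDH knockouts, at 15.95 ± 1.16 CPM against 12.4 ± 0.604. Chondrocyte markers (Col2a1, Acan and 10 others) were present in every group, except Matn1, which was under 1 CPM in every LDH-set sample. The summed level of these markers was 11208 to 13055 CPM in controls and 20526 to 30819 CPM in knockouts of the LDH set. In the Acly set it was 9212 to 10087 CPM and 15243 to 17598 CPM in the same order. Col2a1 made up most of each sum. Acly knockout replicate 2 stood apart on the first principal component (73.3% of the variance), at -35.2 against -60.2 to -70.6 for the other Acly-set samples and 54.0 to 68.8 for the LDH set. Y-linked genes (4, summed) reached 93.0 CPM or more in 2 of 3 LDH controls, and in no other LDH sample more than 0.590 CPM, so their signal differs between the LDH groups. Among Acly samples it lay above 74 CPM in 2 knockouts and 1 control, and at 2.83 CPM or less in the rest.

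Levels were far apart within the family. Per length, in TPM (transcripts per 1000000 transcripts), Junb had the highest mean in all 4 groups, 345 ± 54.9 TPM in controls and 400.5 ± 48.9 TPM in knockouts of the LDH set, and 265 ± 14.7 TPM and 242 ± 23.5 TPM in those of the Acly set (SD, n = 3 each). In LDH controls that mean stood at the 97.6 percentile of detected genes. Fosb was lowest in all 4 groups, at 1.43 ± 0.307, 1.26 ± 0.250, 1.55 ± 0.236 and 1.86 ± 0.569 TPM in the same order, with only 55 to 134 reads per sample, which makes its values the least precise. The mean of Junb was 130.1 to 317 times that of Fosb. Fos, the usual partner of Jun, was the next lowest, at 9.22 ± 1.83 TPM in LDH controls and 17.7 ± 0.709 TPM in Acly controls. Fosl1, another Fos-family subunit and not one of the 10, ranged from 547 to 838 TPM in LDH controls and from 255 to 288 TPM in Acly controls.

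The order of the levels was not the same at both ages. In LDH controls it ran Junb, Dusp1, Btg2, Klf4, Jun, Egr1, Ier2, Klf6, Fos, Fosb by mean TPM, and only Junb and Dusp1 had samples that overlapped with their neighbour's. LDH knockouts had Junb and Dusp1 on top with overlapping samples, while Klf4, Btg2 and Jun overlapped in the middle (203 ± 7.70, 162 ± 42.8 and 136 ± 17.8 TPM). In Acly controls the order was Junb, Egr1, Ier2, Klf4, Jun, Btg2, Dusp1, Klf6, Fos, Fosb, with overlap only between Ier2 and Klf4 and between Jun and Btg2. Dusp1 was thus second at 332 ± 39.1 TPM in LDH controls and seventh at 53.4 ± 3.39 TPM in Acly controls. In Acly knockouts Klf4, Ier2 and Egr1 overlapped in turn, as did Jun, Dusp1 and Btg2, and the other neighbours did not.

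**Figure D1:**
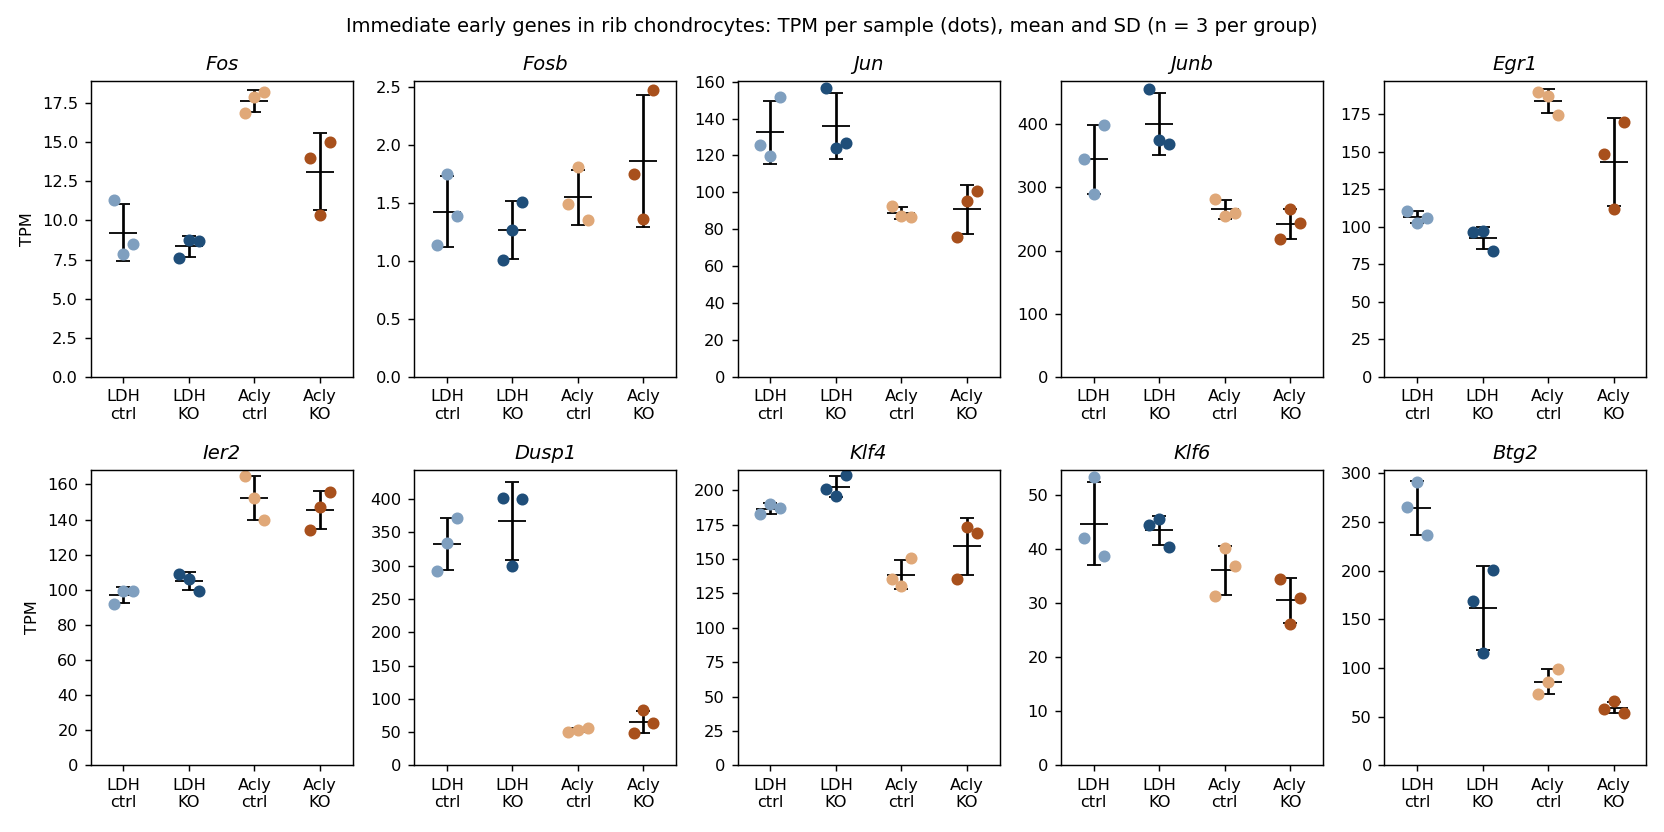
TPM (vertical axis, from 0, a separate scale per gene) of each of the 10 genes in the 12 samples by group. Dots are samples, the long line is the mean and the bars are 1 SD (n = 3 per group). Dusp1 lies at 293 to 401 TPM in the 6 LDH-set samples and at 48.9 to 82.9 TPM in the 6 Acly-set samples, and Btg2 is lower in each knockout group than in its control.

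The LDH knockout had less Ldha transcript, and glycolysis itself was not measured here. None of the 10 genes passed the threshold in LDH knockouts against their controls, where 2.49% of the 13321 tested genes did (edgeR quasi-likelihood test, Benjamini-Hochberg adjusted p under 0.05, here and below). At an unadjusted p under 0.05, 1 of the 10 passed, Btg2, against 19.6% of all tested genes. DESeq2 also called 1, Btg2, among 902 genes called in all. The median log2 fold change of the 10 was 0.02, with 5 above and 5 below 0, and that of all tested genes was 0.01.

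Btg2 came nearest to a call. It was at 446, 477 and 420.5 CPM in LDH control replicates 1 to 3 and at 292, 204 and 339 CPM in LDH knockout replicates 1 to 3. The groups did not overlap, and knockout replicate 2 was the lowest. The log2 fold change was -0.69 ± 0.16 (SE; 95% interval -1.04 to -0.34), which is a level 1.61-fold lower, with an edgeR adjusted p of 0.053. Without LDH knockout replicate 3, the highest of the knockouts, it was -0.85 with an edgeR adjusted p of 0.0126. No other fit with 1 LDH sample left out called Btg2. The groups of 24.3% of all tested genes did not overlap.

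Klf4 was the other gene whose LDH groups did not overlap. It was at 302, 307 and 329 CPM in the controls and at 343, 341 and 352 CPM in the knockouts, all 3 above every control. The step was small, with a log2 fold change of 0.14 ± 0.08 (SE; 95% interval -0.03 to 0.32; edgeR adjusted p = 0.351).

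The AP-1 genes stayed short of the threshold, with overlapping groups. Junb was at 339, 278 and 416 CPM in LDH controls and 463, 389 and 366 CPM in LDH knockouts, and control replicate 3 lay above 2 of the knockouts. Its log2 fold change was 0.23 ± 0.15 (95% interval -0.09 to 0.56; edgeR adjusted p = 0.417). Jun was at 219, 203 and 279 CPM in controls and 279, 227 and 222 CPM in knockouts, with a log2 fold change of 0.05 (95% interval -0.25 to 0.36), and its groups overlapped across nearly their whole range. Fos was at 12.7, 8.65 and 10.1 CPM against 8.77, 10.3 and 9.85 CPM, with a log2 fold change of -0.12 (95% interval -0.48 to 0.24). The interval for Fosb was the widest of the 10, from -0.66 to 0.39 around -0.14.

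Egr1, Ier2, Dusp1 and Klf6 also had overlapping groups. Egr1 was at 185, 168 and 187 CPM in LDH controls and 166, 171 and 142 CPM in LDH knockouts, where knockout replicate 2 lay above the lowest control (log2 fold change -0.18 ± 0.09; edgeR adjusted p = 0.326). Ier2 had a log2 fold change of 0.14 (95% interval -0.05 to 0.33), Dusp1 of 0.16 (-0.14 to 0.46) and Klf6 of -0.01 (-0.24 to 0.23). The farthest bound of these 3 intervals is 0.46 on the log2 scale, that of Dusp1. With the Y-linked signal as a covariate the estimates of Jun, Junb, Ier2, Dusp1 and Klf6 changed sign, none past the threshold, and that of Btg2 was -0.53 with an edgeR adjusted p of 0.459. That signal was at 0.0367 CPM or less in every LDH knockout, and at 93.0, 102 and 0.590 CPM in LDH control replicates 1 to 3. The covariate thus largely coincides with the knockout, and mainly control replicate 3 sets them apart. Effects of the knockout and of the Y-linked signal can hardly be told apart in this fit. The part of the Y-linked signal in these values was not tested further.

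Marker genes of chondrocytes and of other cells differed between the LDH groups, which also differ in Y-linked signal. Of 11 tested chondrocyte markers, 7 were called higher in LDH knockouts. Of 6 tested fat cell markers, 5 were called higher, and their summed level was 23.0 to 62.0 CPM in knockouts against 7.90 to 8.24 CPM in controls. Of 4 tested bone-forming cell markers, 2 were called lower, with summed levels of 12.9 to 29.1 against 59.5 to 79.9 CPM. With the Y-linked signal as a covariate only 3 genes were called over all genes, 1 higher and 2 lower. At most 1 of the markers called higher could therefore still pass in that fit, where the covariate largely coincides with the knockout. Knockout replicate 2, the lowest in Btg2, had the highest chondrocyte sum (30819 CPM) and fat cell sum (62.0 CPM), and replicate 3, the highest of the knockouts in Btg2, had the lowest of both (20526 and 23.0 CPM). Their part in the Btg2 values was not tested. In bulk samples, fewer cells of a type and less RNA per cell cannot be told apart.

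The Acly knockout had less Acly transcript, and acetyl-CoA itself was not measured here. None of the 10 genes passed the threshold in Acly knockouts against controls, where 0.136% of the 13973 tested genes did (edgeR). At an unadjusted p under 0.05, 3 of the 10 passed, Fos, Egr1 and Btg2, each lower in the knockouts, against 15.8% of all tested genes. DESeq2 called 0 of the 10, and 253 genes in all. The median log2 fold change of the 10 was 0.00, with 5 above and 5 below 0. The groups of Fos and Btg2, 2 of the 10, did not overlap, as those of 22.1% of all tested genes.

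Btg2 was at 115, 124 and 149.9 CPM in Acly control replicates 1 to 3 and at 88.9, 112 and 84.5 CPM in Acly knockout replicates 1 to 3. All 3 knockouts lay below every control, and knockout replicate 2 came close to control replicate 1. The log2 fold change was -0.43 ± 0.15 (SE; 95% interval -0.76 to -0.10), a level 1.35-fold lower (edgeR adjusted p = 0.259). Without Acly knockout replicate 2, the sample that stood apart, it was -0.58 with an edgeR adjusted p of 0.0479. No other fit with 1 Acly sample left out called Btg2.

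Fos was at 17.7, 17.4 and 18.501 CPM in Acly controls and 14.3, 11.9 and 15.7 CPM in Acly knockouts, and knockout replicate 2 was the lowest. The log2 fold change was -0.34 ± 0.13 (SE; 95% interval -0.63 to -0.05; edgeR adjusted p = 0.274), and -0.25 without knockout replicate 2. Egr1 was at 296, 270.4 and 264 CPM in controls and 226, 190 and 264 CPM in knockouts, where replicate 3 lay among the controls. Its log2 fold change was -0.28 ± 0.12 (SE; edgeR adjusted p = 0.311), and -0.17 without knockout replicate 2. An exact two-sided permutation test of 3 against 3 samples cannot go below 0.1, and it gave 0.1 for Fos and Btg2 in the Acly set and for Klf4 and Btg2 in the LDH set. Any gene whose groups do not overlap gets this value, so it adds nothing to the non-overlap. Over all tested genes 22.1% had such groups in the Acly set and 24.3% in the LDH set.

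Dusp1 and Klf4 had estimates above 0 in Acly knockouts, and in both replicate 2 was the highest. Dusp1 was at 48.8, 47.9 and 53.5 CPM in Acly controls and 46.4, 87.6 and 61.8 CPM in Acly knockouts. Replicate 2 was far above all others and replicate 1 below every control. The log2 fold change was 0.40 ± 0.21 (95% interval -0.06 to 0.87; edgeR adjusted p = 0.361), and 0.12 without replicate 2. Klf4 was at 209.7, 186 and 226 CPM in controls and 204, 291 and 261 CPM in knockouts, with a log2 fold change of 0.30 ± 0.14 (95% interval -0.03 to 0.63), and 0.17 without replicate 2. Replicates 2 and 3 lay above every control and replicate 1 among them.

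The other 5 genes had overlapping groups in the Acly set, with intervals that include 0. The log2 fold change was 0.13 for Jun (95% interval -0.19 to 0.45), -0.03 for Junb (-0.33 to 0.27), 0.03 for Ier2 (-0.23 to 0.30), -0.15 for Klf6 (-0.38 to 0.07) and 0.34 for Fosb (-0.21 to 0.88). The estimate of Fosb is as large as that of Fos in size, with the widest interval of the 10.

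Acly knockout replicate 2 differed from the Acly control mean towards the LDH controls in 6 of the 10 genes, by -0.59 in Fos, -0.54 in Egr1, 0.81 in Dusp1, 0.50 in Klf4, 0.28 in Jun and 0.18 in Junb on the log2 scale. Klf6 (-0.28), Btg2 (-0.20), Ier2 (0.13) and Fosb (-0.05) differed the other way. Knockout replicate 3 also lay towards the LDH controls in 6 genes and replicate 1 in 4. A share over all genes was not computed for these counts. In replicate 2 the summed fibroblast and perichondrium markers were at 1125 CPM, against 2924 and 3033 CPM in the other knockouts and 3345 to 3878 CPM in Acly controls. Skeletal muscle markers were at 150 CPM there, against 267 and 339 CPM in the other knockouts. What these markers contribute to the values of the 10 genes was not tested.

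**Figure D2:**
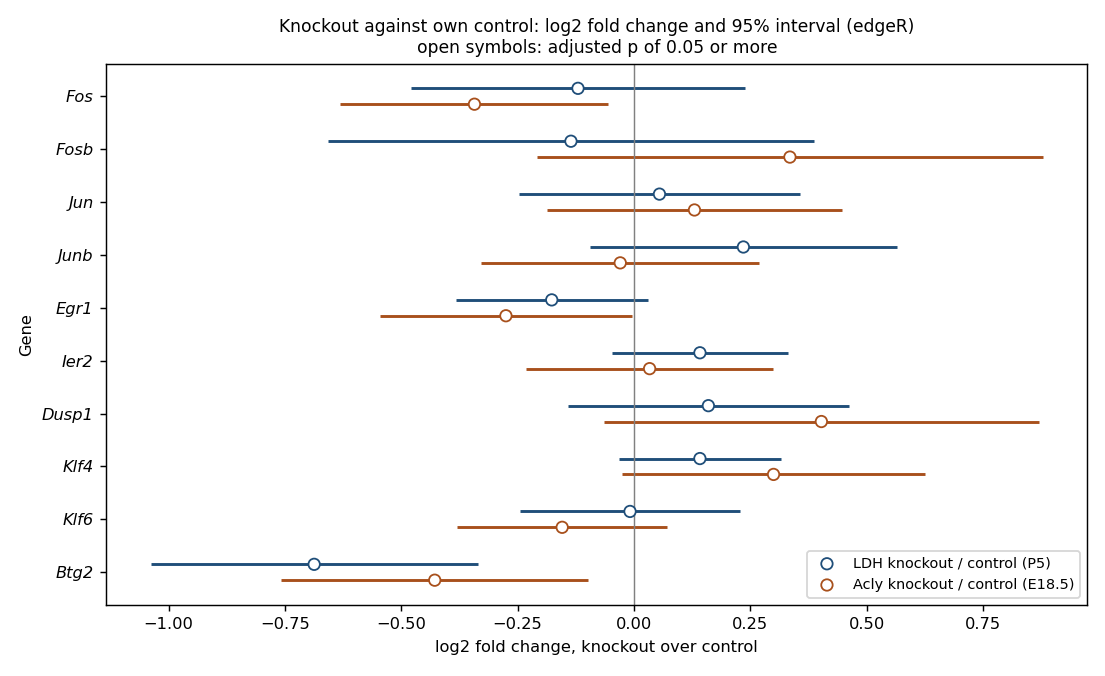
Log2 fold change of knockout over its own control (horizontal axis) for each gene, with 95% interval from edgeR, in the LDH set (blue) and the Acly set (orange), n = 3 per group. All symbols are open, since no adjusted p was under 0.05. Both Btg2 intervals lie below 0, at -1.04 to -0.34 and -0.76 to -0.10.

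The difference between both knockout effects was tested in a fit of all 12 samples. None of the 10 genes passed, where 0.161% of 14251 genes did (edgeR), and none passed at an unadjusted p under 0.05, which 13.0% of all genes did. DESeq2 called 0 of the 10, and 213 genes in all. For Btg2 the LDH effect minus the Acly effect was -0.24 ± 0.23 on the log2 scale (95% interval -0.74 to 0.26; edgeR adjusted p = 0.659), so the estimates of both lines could not be told apart in size. The largest difference was that of Fosb, -0.46 (95% interval -1.20 to 0.28), followed by Junb at 0.28 (-0.17 to 0.74). For the other 7 the estimates ran from -0.22 (Dusp1) to 0.24 (Fos). Age and the deleted gene cannot be told apart in this contrast.

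More genes differed between the control groups than between either knockout and its control. Of the 10 genes, 9 passed the threshold in Acly controls (E18.5) against LDH controls (P5), where 55.0% of the 14251 tested genes did (edgeR). Dusp1, Btg2, Jun, Klf4, Junb and Klf6 were lower in Acly controls, where 25.7% of all tested genes were called lower. Fos, Egr1 and Ier2 were higher there, where 29.4% of all genes were called higher. The median log2 difference of the 10 was -0.51, against 0.02 over all genes. Age, line and any batch of the libraries coincide in this comparison and cannot be told apart.

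Dusp1 and Btg2 stood out by size. Dusp1, the MAP kinase phosphatase, was at 305, 339 and 409 CPM in LDH controls and at 48.8, 47.9 and 53.5 CPM in Acly controls, a level 7.0-fold lower at E18.5 (log2 difference -2.81 ± 0.20; 95% interval -3.24 to -2.38; edgeR adjusted p = 3.79e-07). Btg2 was 3.45-fold lower, at 446, 477 and 420.5 CPM against 115, 124 and 149.9 CPM (log2 difference -1.79 ± 0.17; edgeR adjusted p = 2.68e-06). For both, all 6 LDH-set samples, knockouts included, lay above all 6 Acly-set samples. Ergic1, which lies opposite the longest Dusp1 model, was at 191 ± 8.53 TPM in LDH controls and 182 ± 9.96 TPM in Acly controls, and the ranges of these groups overlapped. What reads of Ergic1 add to the values of Dusp1 was not tested.

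Jun and Junb were lower and Fos was higher in Acly controls, while Fosb did not pass. Jun was 1.68-fold lower in Acly controls, at 150.4, 131 and 136 CPM against 219, 203 and 279 CPM (log2 difference -0.75 ± 0.15; edgeR adjusted p = 0.000793). Junb was 1.46-fold lower (-0.55 ± 0.15; edgeR adjusted p = 0.00692), at 259, 217 and 230.5 CPM against 339, 278 and 416 CPM. Fos was 1.70-fold higher (0.77 ± 0.15; edgeR adjusted p = 0.000753), at 17.7, 17.4 and 18.501 CPM against 12.7, 8.65 and 10.1 CPM. In these 3 genes, as in the other 6 called, the control samples of one age did not overlap with those of the other, which held for 65.4% of all tested genes. Fosb, at 2.88 ± 0.355 CPM against 2.93 ± 0.550 CPM, gave -0.03 (95% interval -0.55 to 0.50), and total counts without scaling and FPKM gave it the opposite sign. Prdx2, which overlaps Junb, was at 169.8 ± 8.06 TPM in Acly controls and 93.2 ± 10.4 TPM in LDH controls, the opposite direction to Junb. What reads of Prdx2 add to the values of Junb was not tested.

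Egr1 and Ier2 were higher at E18.5 by 1.54-fold and 1.40-fold. Egr1 was at 296, 270.4 and 264 CPM in Acly controls and 185, 168 and 187 CPM in LDH controls (log2 difference 0.62 ± 0.11; edgeR adjusted p = 0.000498). Ier2 was at 124, 106 and 102 CPM against 73.9, 78.2 and 84.9 CPM (0.49 ± 0.10; edgeR adjusted p = 0.00117). All 6 Acly-set samples lay above all 6 LDH-set samples in both, as in 20.5% of all genes. Klf4 was 1.51-fold lower at E18.5 (-0.59 ± 0.11; edgeR adjusted p = 0.000677) and Klf6 1.39-fold lower (-0.47 ± 0.11; edgeR adjusted p = 0.00232). With Jun, Junb, Dusp1 and Btg2 they made up 6 genes whose 6 Acly-set samples all lay below the LDH set, as in 16.4% of all genes. The calls of Klf6 and Junb were the less firm, since Klf6 had an adjusted p of 0.0503 to 0.0648 in limma on FPKM values and Junb 0.0581 in one such setting.

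**Figure D3:**
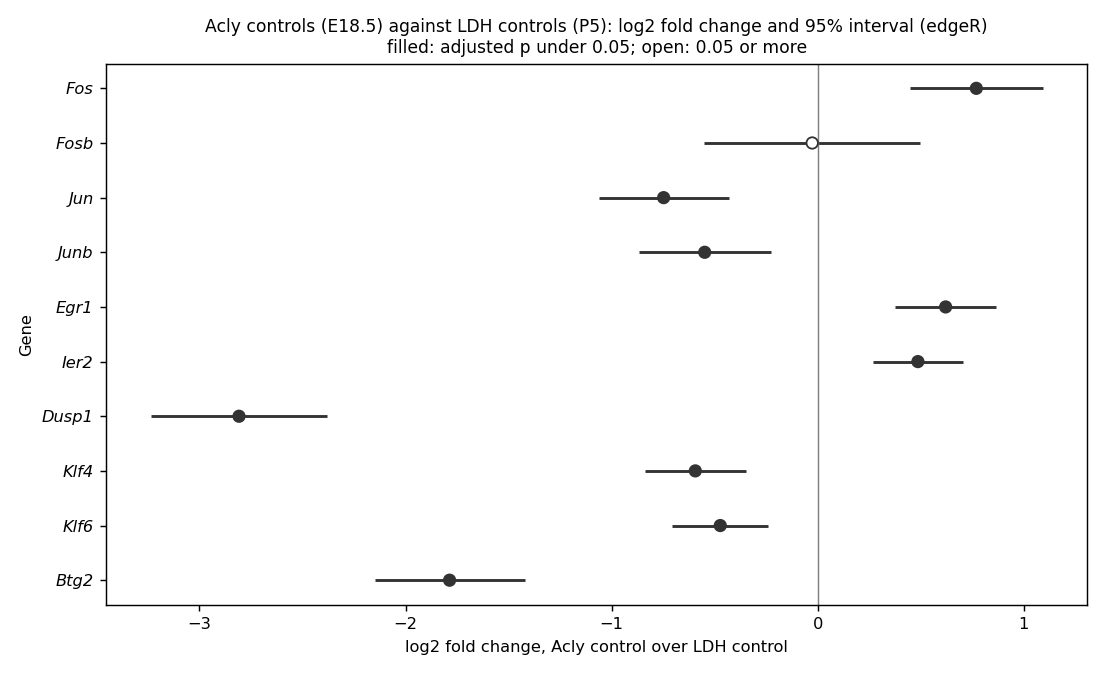
Log2 difference of Acly controls (E18.5) over LDH controls (P5) for each gene (horizontal axis) with 95% interval from edgeR, n = 3 per group. Filled symbols have an adjusted p under 0.05 and the open one, Fosb, has 0.932. Dusp1 at -2.81 and Btg2 at -1.79 lie farthest from 0, and Fos, Egr1 and Ier2 lie above 0.

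Marker levels also differed between the control groups. Of 12 chondrocyte markers, 8 were called higher in Acly controls and 1, Col2a1, lower. All 6 fibroblast and perichondrium markers, all 6 endothelial markers and all 9 skeletal muscle markers were called higher in Acly controls. Their summed levels were 3345 to 3878, 84.5 to 99.7 and 299 to 402 CPM there, against 483 to 925, 10.1 to 15.5 and 22.01 to 40.1 CPM in LDH controls. The Acly knockout replicate 2, with fibroblast and perichondrium markers at 1125 CPM, had Dusp1 at 87.6 CPM and Btg2 at 112 CPM, both below every LDH-set sample. Its endothelial markers were at 98.9 CPM and its skeletal muscle markers at 150 CPM. All 3 of these marker sums lay above those of every LDH-set sample. What other cells contribute to the difference in the 10 genes was not tested.

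Of 31 other primary response genes, 19 were called lower and 5 higher in Acly controls against LDH controls, with a median log2 difference of -0.62. Of all tested genes 25.7% were called lower and 29.4% higher, the shares to read each list's counts against. The stress-linked Gadd45b (-2.20), the polo-like kinase gene Plk2 (-1.87) and Gadd45g (-1.74) lay lowest, as did the matricellular genes Cyr61 (-1.40) and Ctgf (-1.39). The 5 called higher were Egr3 (1.72), Nr4a1 (1.42), Egr2 (1.07), Sik1 (0.58) and Nr4a2 (0.52), of which Egr2 and Egr3 are relatives of Egr1. Gadd45b was at 126 ± 4.33 CPM in LDH controls and 27.4 ± 1.76 CPM in Acly controls, and Nr4a1 at 12.4 ± 2.03 and 33.2 ± 2.02 CPM.

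Of 10 other AP-1 family genes, 4 were called lower (Fosl1 -1.46, Mafk -1.35, Maff -1.32 and Atf3 -0.38) and 2 higher (Batf3 2.45 and Jdp2 0.48). Batf3 lay at 0.0373 to 0.118 CPM in LDH controls, about the floor of 3 counts, and at 0.347 to 0.710 CPM in Acly controls. The size of its difference is therefore uncertain. Fosl1 was at 619 ± 123 CPM in LDH controls and 224 ± 21.1 CPM in Acly controls. Of 19 feedback inhibitors, 9 were called higher and 4 lower, with a median of 0.10. The 9 held Spry1 (1.70), Dusp2 (1.67), Socs3 (0.85), Zfp36 (0.73) and Dusp4 (0.68), where Spry1 restrains receptor tyrosine kinase signalling and Zfp36 drives decay of AU-rich mRNAs. The 4 were Nfkbia (-1.20), Errfi1 (-0.99), Tnfaip3 (-0.98) and Spry2 (-0.23). Dusp1 thus lay far below 0 while Dusp2 and Dusp4, phosphatases of the same family, lay above it. The family did not go 1 way, and Dusp5, Dusp6 and Dusp10 of the list were not called. Their means were 12.1, 41.9 and 8.20 CPM in LDH controls and lower, at 10.2, 37.2 and 6.47 CPM, in Acly controls. Dusp2 was scarce, at 0.522 CPM in LDH controls and 1.67 CPM in Acly controls.

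Of 20 upstream kinases and factors, 4 were called higher and 3 lower, led by Mapk3, which encodes ERK1, at 0.90 and Mkl1, a coactivator of SRF, at -0.53. Of 14 secreted and protease targets of AP-1 or EGR1, 6 were called higher and 7 lower. The proteases went both ways, with Mmp9 at 2.56, Mmp13 at 2.06 and Plau at 1.45 against Mmp3 at -3.23, and Ptgs2, the inducible cyclooxygenase gene, was at -2.24. Of 13 heat shock genes, 1 was called higher, Hspb1 at 1.88, and 5 lower, the farthest Hsph1 at -0.51.

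**Figure D4:**
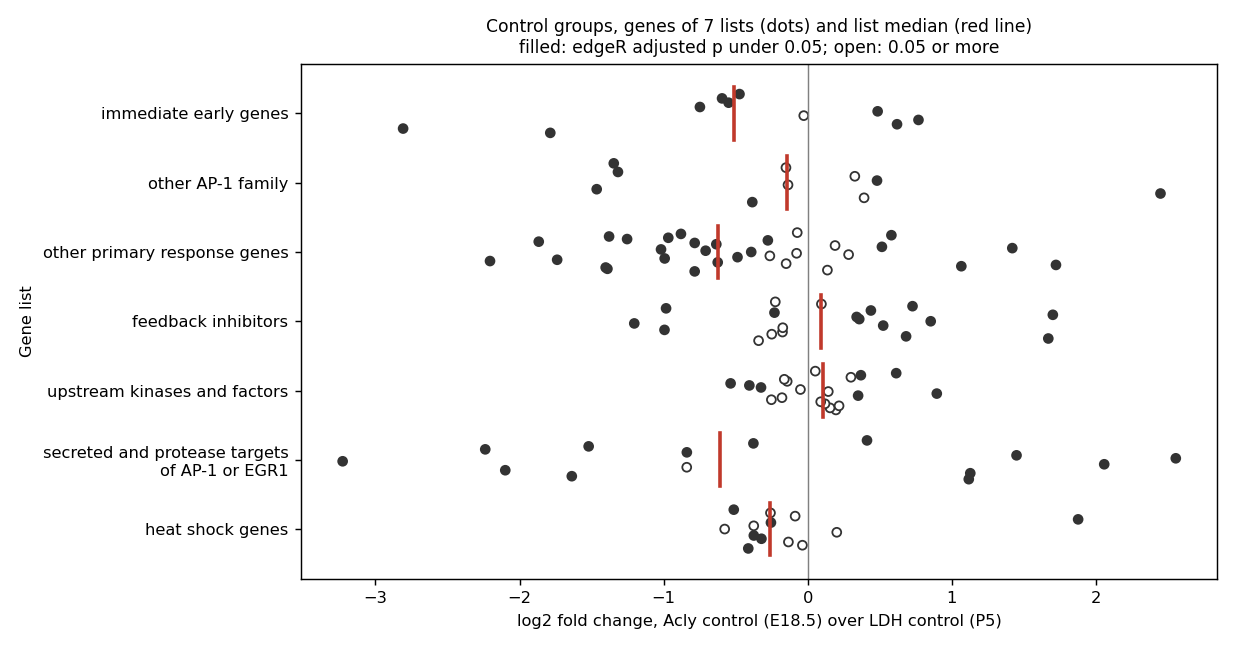
Log2 difference of Acly controls over LDH controls (horizontal axis) for the genes of 7 lists (rows). Each dot is a gene, filled where the edgeR adjusted p is under 0.05, and the red line is the list's median. The median is -0.51 for the immediate early genes, -0.62 for other primary response genes and 0.10 for feedback inhibitors.

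In the knockouts 0 to 2 genes of each of these lists passed. In LDH knockouts 2 of 31 other primary response genes were called higher and none lower. Ctgf, which encodes a secreted matrix-associated protein, rose from 204 ± 9.66 to 497 ± 101 CPM (log2 fold change 1.29 ± 0.14; edgeR adjusted p = 0.00357). Sgk1, a kinase gene of the serum and glucocorticoid response, rose from 79.5 ± 6.64 to 114 ± 5.07 CPM (0.52 ± 0.08; edgeR adjusted p = 0.0146), a call that was lost without LDH knockout replicate 1 (0.0698) or LDH control replicate 3 (0.0543). Klf2 (0.96; edgeR adjusted p = 0.0622) had the next lowest p of that list. Ptgs2 fell from 563 ± 74.7 to 382 ± 31.7 CPM (-0.56 ± 0.11; edgeR adjusted p = 0.0334), as 1 of 14 targets. That call was lost when LDH knockout replicate 1 or 2, or LDH control replicate 1 or 2, was left out (adjusted p 0.089 to 0.128). It was also lost in the fit of all 12 samples (0.0939) and in limma on unfiltered FPKM (0.0925), where that of Sgk1 was lost as well (0.0518). With the Y-linked signal as a covariate, which largely coincides with the LDH knockout, no call held. The log2 fold change was then 1.13 for Ctgf (edgeR adjusted p = 0.283), 0.53 for Sgk1 (0.284) and -0.24 for Ptgs2 (0.523), so that of Ptgs2 was the one that shrank most.

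No gene passed in LDH knockouts among 9 tested AP-1 relatives, 19 feedback inhibitors, 20 upstream kinases and factors and 13 heat shock genes. Over all these other lists 3 of 106 tested genes passed, close to the 2.49% of all tested genes, and 35 of 106 had an unadjusted p under 0.05, against 19.6% of all. DESeq2 called 11 of the 18 genes with the 3 lowest p of each list. The genes counted so, here and below, were picked by low edgeR p in the same data. Their DESeq2 counts are therefore no support for the lists. The lowest p in each of the 4 lists was that of Jund (0.39; edgeR adjusted p = 0.138), Spry4 (-0.68; 0.0602), Rps6ka4 and Hspb1 (0.53; 0.0964). In Acly knockouts no gene of any of these lists passed in edgeR, with 21 of 106 at an unadjusted p under 0.05 (15.8% of all tested genes) and 9 of the 18 lowest-p genes called by DESeq2. Cyr61 (0.61) and Jdp2 (0.42), each with an edgeR adjusted p of 0.114, and Mmp13 (-1.09; 0.0694) had the lowest p of their lists. In the difference between both effects none passed either (27 of 107 at an unadjusted p under 0.05, against 13.0% of all genes, and 4 of 18 in DESeq2), and Mmp13 (1.42; edgeR adjusted p = 0.058) came nearest. Over the alternative settings the Mmp13 difference passed in 4 of 20, and the Acly effect of Mmp13 in 4 of 16. The difference of Ctgf was 0.95 (edgeR adjusted p = 0.145) and that of Sgk1 0.62 (0.103), and DESeq2 called both (adjusted p 0.0155 and 0.0149). The difference of Ctgf also passed in edgeR without LDH knockout replicate 3 (1.11; adjusted p = 0.0306) or Acly knockout replicate 3 (1.16; 0.0426). Whether either rise differs between the lines therefore depended on the tool and, for Ctgf, on the samples.

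Samples of a group differed somewhat more in these genes than in the median gene. Of the 9 that average 5 CPM or more, which leaves out Fosb, the median coefficient of variation was 13.4% in controls and 9.75% in knockouts of the LDH set, and 8.90% and 15.8% in those of the Acly set. Over all genes of at least that level it was 8.22%, 7.64%, 7.12% and 10.7% in the same order. In the same order 5, 7, 6 and 7 of the 9 lay above the median of all genes. The widest spread of the 9 was that of Dusp1 in Acly knockouts at 31.9%, and the narrowest that of Klf4 in LDH knockouts at 1.67%.

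They did not vary as 1 block. Each sample's deviation from its own group mean (log2 CPM) was compared between genes over the 12 samples, 45 pairs in all. The pairs named here were picked with their values in view, so none is tested. Jun and Junb, neighbours in function but on different chromosomes, put the 3 samples of a group in the same order in all 4 groups, with Pearson's r of 0.92. Egr1 and Btg2 put them in opposite order in all 4 groups, with r of -0.78. Dusp1 and Klf4 had the same order in 3 of 4 groups (r of 0.84). Without Acly knockout replicate 2 the values were 0.91, -0.75 and 0.77. The points share their libraries and scaling, so r is a description only.

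**Figure D5:**
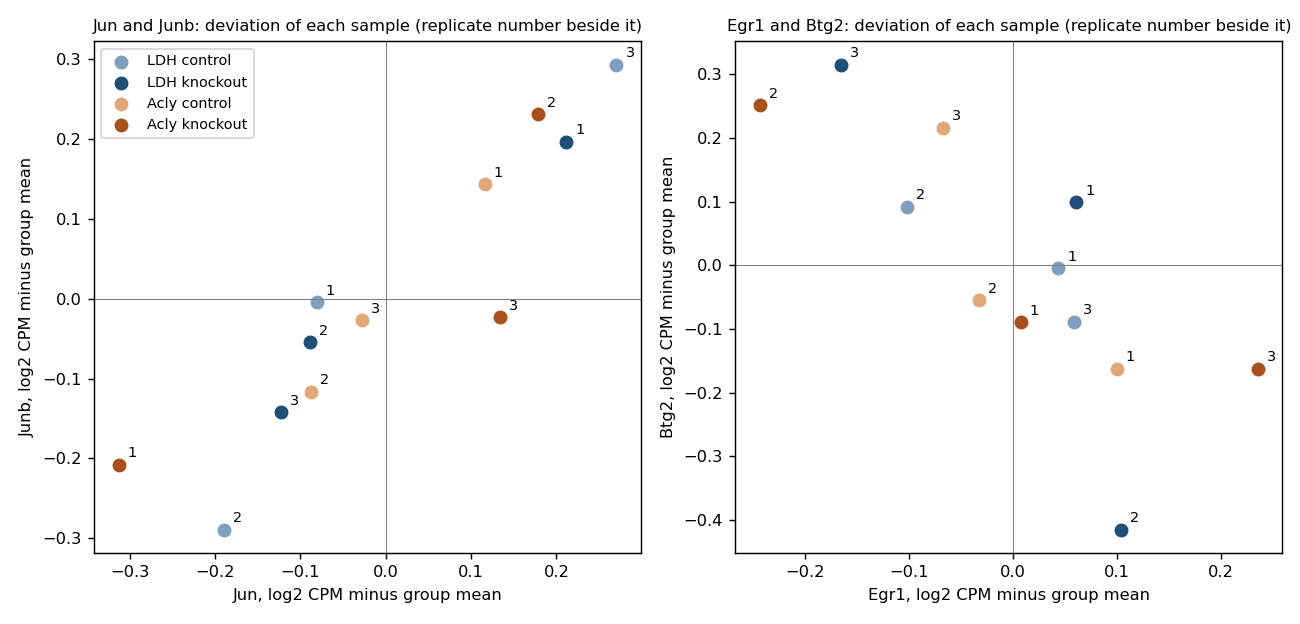
Deviation of each sample from its group mean (log2 CPM) for Jun against Junb (left) and Egr1 against Btg2 (right), with the replicate number beside each of the 12 points and the group as colour. Jun and Junb rise together (r of 0.92) and Btg2 is lower where Egr1 is higher (r of -0.78).

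Against the mean deviation of the other 9, Jun (r of 0.82), Klf4 (0.73), Ier2 (0.60), Dusp1 (0.58) and Junb (0.50) went along, while Klf6 (-0.66) and Fos (-0.37) went against it. Egr1 (-0.07), Btg2 (-0.15) and Fosb (-0.25) lay between. Outside the 10, the genes whose deviations were most like the mean of the 10, among 10566 genes over the 12 samples, were Pak4 (r of 0.97), Arfgap1 and Pdgfc (0.95 each), Smarcd2 (0.94), and Ppp1r13l, Tbc1d10a, Tymp and Zswim4 (0.92 each). These are the highest of 10566 values from 12 samples and carry no test.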

How the data were processed

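RNA-seq values of 12 samples were taken from 1 table of 17922 genes that the authors deposited. Per the file headers it holds read counts, FPKM and TPM. Its 12 columns of averages were left out. The deposited counts are expected counts, since 7.32% to 8.16% of a sample's values are not whole numbers, and how the authors made them is not given in the sources used here. They were rounded. The submitters' processing notes name HISAT2 2.0.4 and mm9. The counting program, annotation and use of strand are not given in the sources used here. The deposited TPM served for levels, and the authors' FPKM for an alternative test. No molecular identifiers are named, so the floor of 3 counts covers counting error only.

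Counts were tested with edgeR 4.0.16 in R 4.3.3 (TMM scaling, filterByExpr, two-sided quasi-likelihood F test, Benjamini-Hochberg adjustment over all tested genes, threshold 0.05). Each knockout was fitted with its own control. All 12 samples entered the fit for the difference of effects and for the control groups. CPM are TMM-scaled over the 12 samples, except Y-linked CPM, which use total counts. The standard error is the log2 fold change divided by the square root of F. Alternatives used DESeq2 1.42.0 and limma 3.58.1. The script was tested on simulated data.

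Members and lists were chosen with earlier results of these data known. Named outside the 10 genes were, by rule, those of each list past the threshold or among the 3 lowest p, and the 8 most alike genes. Dusp5 and Dusp6 were named in addition, so that the Dusp genes of the list stand together. Of the table's gene IDs, 17814 were found in RefSeq GRCm38.p6, and 26 symbols turned into dates were restored. Promoters are from RefSeq GRCm38.p6 and gene structures from GENCODE M21, a later build than mm9.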

Additional observations from a re-analysis of the deposited data

How the results depend on the processing

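No member passed in LDH knockouts except Btg2, which was the 1 member called without the low-count filter (adjusted p 0.0325), in DESeq2 (0.000197), with the replicate block (0.0489), in the fit of all 12 samples (0.0398) and without LDH knockout replicate 3, so leaving out 1 replicate gave 0 to 1 members. Its log2 fold change stayed between -0.85 and -0.50 over 16 alternatives. In Acly knockouts leaving out 1 replicate gave 0 to 1 members, Btg2 without Acly knockout replicate 2. For the controls 9 members were called in each alternative but those on FPKM, with 8, 8 and 7. Total counts without scaling moved the median of all genes there from 0.02 to 0.19 and the share higher among called genes from 53.3% to 72.4%.

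The 332 genes called in LDH knockouts became 902 in DESeq2, 66 in limma on unfiltered FPKM, 3 with the Y-linked covariate and 95 to 1068 when 1 replicate was left out, the most without LDH knockout replicate 3. The 19 genes called in Acly knockouts became 11 without scaling, 32 without the filter, 253 in DESeq2, 5 in limma on unfiltered FPKM, 6 with the Y-linked covariate, 31 in the fit of all 12 samples and 0 to 132 when 1 replicate was left out, the most without Acly knockout replicate 2. The 23 genes of the difference became 213 in DESeq2, 9 in limma on unfiltered FPKM and 5 to 143 when 1 replicate was left out, the most without LDH knockout replicate 3. Where a replicate was left out, 2 samples remained in that group. In the LDH set the Y-linked covariate largely coincides with the knockout. The cause of these changes was not tested.

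Signs turned only in estimates that had not passed with the report's settings. In the LDH set, where it largely coincides with the knockout, the Y-linked covariate gave Jun -0.38, Junb -0.23, Ier2 -0.043, Dusp1 -0.19, Klf6 0.17 and Jund -0.011. With 1 replicate left out Fos ran from -0.25 to 0.038, Fosb from -0.28 to 0.012, Jun from -0.054 to 0.21 and Klf6 from -0.068 to 0.10. In Acly knockouts Ier2 was -0.018 without scaling and -0.022, -0.021 and -0.022 in the FPKM settings, and ran from -0.036 to 0.13 with 1 replicate left out, as Junb did from -0.17 to 0.077. In the difference Jun ran from -0.19 to 0.092 and Dusp1 from -0.41 to 0.052. For the controls Fosb was 0.15 without scaling and 0.13, 0.061 and 0.13 in the FPKM settings, and ran from -0.17 to 0.068 with 1 replicate left out.

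Same-numbered knockout and control samples did not deviate together (correlations over 10575 genes of 0.09, -0.22 and -0.04 in the LDH set and -0.04, -0.27 and -0.40 in the Acly set), so the numbers were not read as pairs. With the replicate block 362 genes passed in LDH knockouts, 1 of them a member, 8 in Acly knockouts, 5 in the difference and 7398 for the controls.

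With 3 samples a group, the knockout intervals of the 10 genes are 0.35 to 1.09 wide on the log2 scale, so small effects could not be told from 0. Fosb, at 55 to 134 reads, is limited by depth as well.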
